A study of Mus musculus with 4 samples.

Results

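H19, Mest and related imprinted growth genes were described across 4 libraries of cultured mouse myoblasts that carried a retrovirus with Twist2 or with green fluorescent protein (GFP). Of 10 genes named for this set, 7 were among the 3760 genes of the authors' deposited table, namely H19, Mest, Igf2, Plagl1, Peg3, Meg3 and Rian. Dlk1, Grb10 and Cdkn1c were not among them and were not analysed here. The table lists genes that had at least 10 CPM (reads of a gene per 1000000 reads of its library) in at least 2 libraries and a log2 ratio of at least 1, in either direction, against the GFP growth medium library in at least 1 of 3 comparisons. A listed gene therefore had to differ somewhere, and a gene that is not listed is not shown to be unexpressed. The set was named with these CPM values known, so the values below describe it and no test is attached to them. The members that entered only just were Rian and Meg3, with highest levels of 11.4 and 12.3 CPM, and Peg3 had the smallest maximum ratio among the 7, at 1.65 in absolute log2 terms in the authors' deposited table. Rian and Meg3 each passed only 1 of the 3 ratios, that of Twist2 differentiation medium against GFP growth medium. They are thus listed only through their low level in the Twist2 differentiation medium library.

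The cells were myoblasts from adult C57BL/6 skeletal muscle, called Twist2-positive in the labels and grown on Matrigel. After 24 h with virus they had a further 24 h in growth medium, which holds 20% fetal bovine serum. They were then harvested or moved to differentiation medium with 2% horse serum, for which the labels give 5 days. The groups were Twist2 differentiation medium (Twist2 DM, a Twist2-IRES-GFP virus), GFP differentiation medium (GFP DM), Twist2 growth medium (Twist2 GM) and GFP growth medium (GFP GM), with 1 library each. All groups thus carried a virus, and every difference is between 2 single libraries without a replicate check, so a library effect and a condition effect cannot be told apart. The reads recovered from the CPM values totalled 12362290, 9235281, 11068073 and 9744075 in that order, and the intervals given with CPM values and ratios are 95% exact (Clopper-Pearson) counting intervals that cover counting error only. Twist2, the transcription factor on the virus, stood at 674 CPM in Twist2 DM and 0 reads in GFP DM, and at 1438 CPM in Twist2 GM and 0.103 CPM (1 read) in GFP GM. The GFP libraries, although labelled as Twist2-positive cells, thus held 0 and 1 Twist2 reads. Of 6 muscle markers 5 were listed (Pax7, Myod1, Des, Cdh15 and Myog), and their summed level ran from 1580 to 9198 CPM over the libraries. These did not move alike. Des, Cdh15 and Myog were higher in differentiation than in growth medium with either virus, and Myod1, by CPM, only with the Twist2 virus. The log2 ratio of Myod1 in GFP cells was -0.55. Scaling to the summed reads of unlisted genes shifts that comparison by 0.80, so the direction of Myod1 there rests on the scaling. Pax7 was lower, at 4.01 against 78.7 CPM in GFP cells and 34.6 against 60.5 CPM in Twist2 cells. Of 5 fibroblast markers only Ly6a was listed, at 0 to 32.9 CPM, and of 4 pericyte and smooth muscle markers Acta2 and Rgs5 were listed, with sums from 198 to 7948 CPM. Acta2 was higher in differentiation than in growth medium, at 7948 against 361 CPM in GFP cells and 5050 against 113 CPM in Twist2 cells. Rgs5 was lower, at 0.108 (1 read) against 51.7 CPM in GFP cells and 4.69 against 85.1 CPM in Twist2 cells. None of 14 endothelial, blood, adipocyte and Schwann markers was listed.

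Imprinted genes are expressed mainly from the copy inherited from 1 parent. Many of them set the growth of the fetus and its muscle, and several are switched down after birth and return in regenerating muscle. H19 and Igf2 lie side by side and share an imprinting control region and enhancers. The maternal copy gives the long noncoding RNA H19, and the paternal copy gives Igf2, an insulin-like growth factor that muscle cells secrete as they differentiate. Mest, expressed from the paternal copy, encodes a protein of the alpha/beta hydrolase family named for its expression in mesoderm. Plagl1 (Zac1) encodes a zinc finger factor that regulates other imprinted genes, H19 and Igf2 among them, and Peg3 (Pw1) encodes a zinc finger protein found in muscle stem and interstitial cells. Meg3 and Rian are maternally expressed long noncoding RNAs of the Dlk1-Dio3 cluster. The table holds 1 value per gene and no counts by allele, so it does not say which parental copy the reads came from.

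H19, Mest and Igf2 each carry a microRNA hairpin on their own strand. The hairpin of miR-675 lies inside an exon of H19, and those of miR-335 and miR-483 lie between exons of Mest and Igf2. The mature sequences are shown because the results below turn on their host genes. They come from RefSeq (GRCm38.p6), run 5′ to 3′, and have the seed, bases 2 to 8, in capitals.
mmu-miR-675-5p (H19): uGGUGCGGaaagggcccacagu
mmu-miR-675-3p (H19): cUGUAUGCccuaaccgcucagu
mmu-miR-335-5p (Mest): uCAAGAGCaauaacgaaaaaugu
mmu-miR-335-3p (Mest): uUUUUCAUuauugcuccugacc
mmu-miR-483-5p (Igf2): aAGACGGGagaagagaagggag
mmu-miR-483-3p (Igf2): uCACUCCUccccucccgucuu
No seed is shared among these 6, and 0 other mature mouse microRNAs in the RefSeq table carry any of them. Mature microRNAs were not measured in these libraries, and the values below are those of the host genes.

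H19 (chromosome 7, 142575529 to 142578143, minus strand, GRCm38) was high in every library and lowest in Twist2 cells before differentiation. Its level was 20176 CPM in Twist2 DM, 29045 CPM in GFP DM, 2328 CPM in Twist2 GM and 11102 CPM in GFP GM. No 2 of these counting intervals overlapped. Such intervals are narrow where reads are many, and those of the muscle marker Des were all apart as well. Intervals that are apart, here and below, thus describe counting error only. Among listed genes it ranked 10 in Twist2 GM and 1 in the other libraries, by CPM without regard to length. In growth medium H19 was 4.77-fold lower in Twist2 cells than in GFP cells (log2 ratio of CPM + 1 -2.25, counting interval -2.27 to -2.23). In differentiation medium the Twist2 library was lower by less than 2-fold (log2 ratio -0.53, interval -0.53 to -0.52). That last ratio rests on the scaling of the libraries. Scaled to the summed reads of unlisted genes instead of all reads it was -1.12, past the 2-fold threshold.

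Differentiation medium went with more H19 in both kinds of cell. The Twist2 cells had 8.67-fold more H19 in differentiation than in growth medium (log2 ratio 3.12, interval 3.10 to 3.13). The GFP cells had 2.62-fold more (log2 ratio 1.39, interval 1.38 to 1.40). The difference of these responses, Twist2 minus GFP, was 1.73 on the log2 scale.

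Igf2 (chromosome 7, 142650766 to 142666816, minus strand) followed the same order of libraries with wider distances. It stood at 4986 CPM in Twist2 DM, 8642 CPM in GFP DM, 211 CPM in Twist2 GM and 1252 CPM in GFP GM. Again no counting intervals overlapped. Igf2 was 5.92-fold lower in Twist2 GM than in GFP GM (log2 ratio -2.56, interval -2.63 to -2.50). It was within 2-fold in differentiation medium, Twist2 over GFP (log2 ratio -0.79, interval -0.81 to -0.78), and past 2-fold lower when scaled to unlisted genes (-1.39). Twist2 cells had 23.6-fold more Igf2 in differentiation than in growth medium (log2 ratio 4.55), and GFP cells had 6.91-fold more (log2 ratio 2.79).

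**Figure D1:**
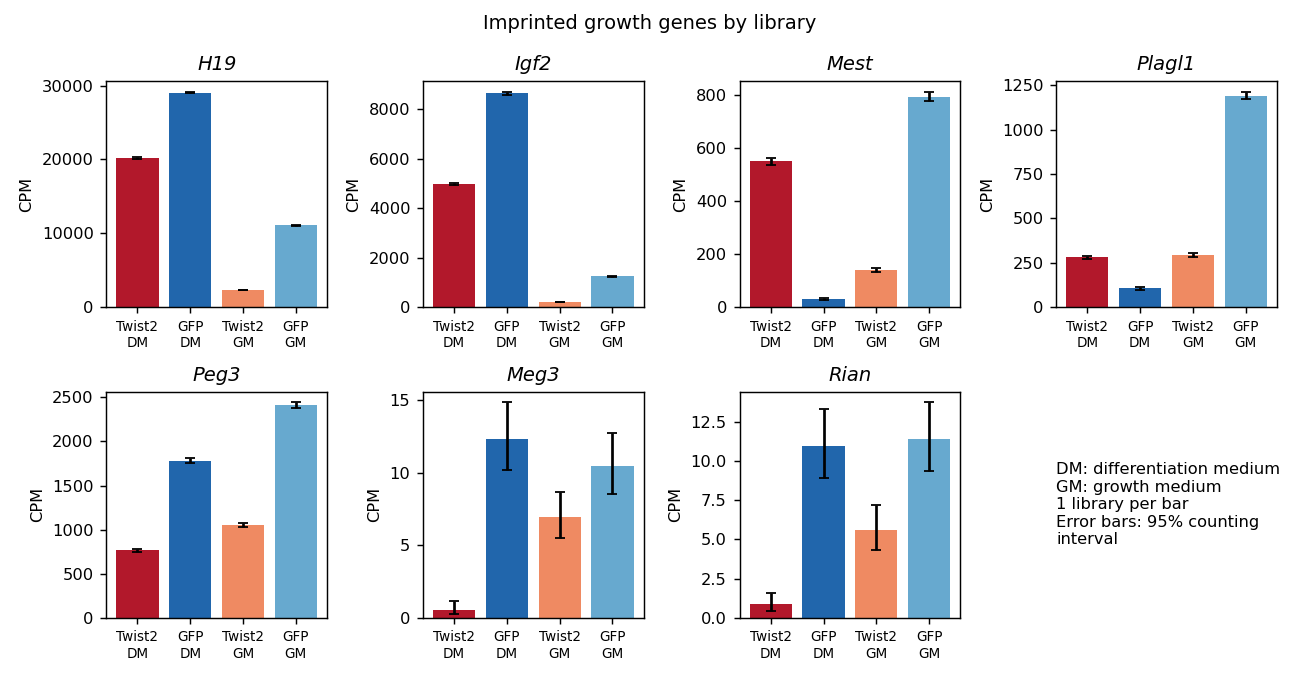
Level of each imprinted growth gene in CPM (vertical axes start at 0 and differ between panels) in the 4 libraries, 1 library per bar, with 95% counting intervals as error bars. H19 and Igf2 are highest in GFP DM (29045 and 8642 CPM) and lowest in Twist2 GM, whereas Mest is highest in GFP GM (793 CPM) and lowest in GFP DM (29.1 CPM).

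The proportion of Igf2 to H19 reads is taken within a library and does not depend on scaling. It was 0.247 in Twist2 DM (interval 0.245 to 0.249), 0.298 in GFP DM (0.295 to 0.300), 0.0908 in Twist2 GM (0.0870 to 0.0947) and 0.113 in GFP GM (0.111 to 0.115). Igf2 was thus higher relative to H19 in differentiation medium than in growth medium, with either virus. Per kilobase of annotated exon H19 was more abundant than Igf2 throughout, with 8202 against 871 CPM per kb in Twist2 DM and 11807 against 1510 CPM per kb in GFP DM. In growth medium the levels of H19 and Igf2 were 946 and 36.9 CPM per kb in Twist2 cells and 4513 and 219 CPM per kb in GFP cells.

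Mest (chromosome 6, 30723547 to 30748465, plus strand) had another order. It stood at 548 CPM in Twist2 DM, 29.1 CPM in GFP DM, 139 CPM in Twist2 GM and 793 CPM in GFP GM, with no overlap of counting intervals. The GFP cells had far less Mest in differentiation than in growth medium, and the Twist2 cells had more. Mest was 27.2-fold lower in GFP DM than in GFP GM (log2 ratio -4.72, interval -4.95 to -4.59). It was 3.93-fold higher in Twist2 DM than in Twist2 GM (log2 ratio 1.97, interval 1.90 to 2.06). Between the viruses Mest was 18.8-fold higher in Twist2 DM than in GFP DM (log2 ratio 4.19, interval 4.06 to 4.42) and 5.69-fold lower in Twist2 GM than in GFP GM (log2 ratio -2.50, interval -2.59 to -2.43).

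The difference of the differentiation responses of Mest, 6.69 on the log2 scale, ranked 1 among the 3760 listed genes. The rank was 3 with a pseudocount of 0.1 CPM and 1 with a pseudocount of 5 CPM and with either other scaling. A fall of at least 2-fold in GFP cells together with a rise of at least 2-fold in Twist2 cells was found for 42 listed genes (1.12%), and Mest was the single gene of the imprinted list among them. With 1 library per group this difference has no test.

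**Figure D2:**
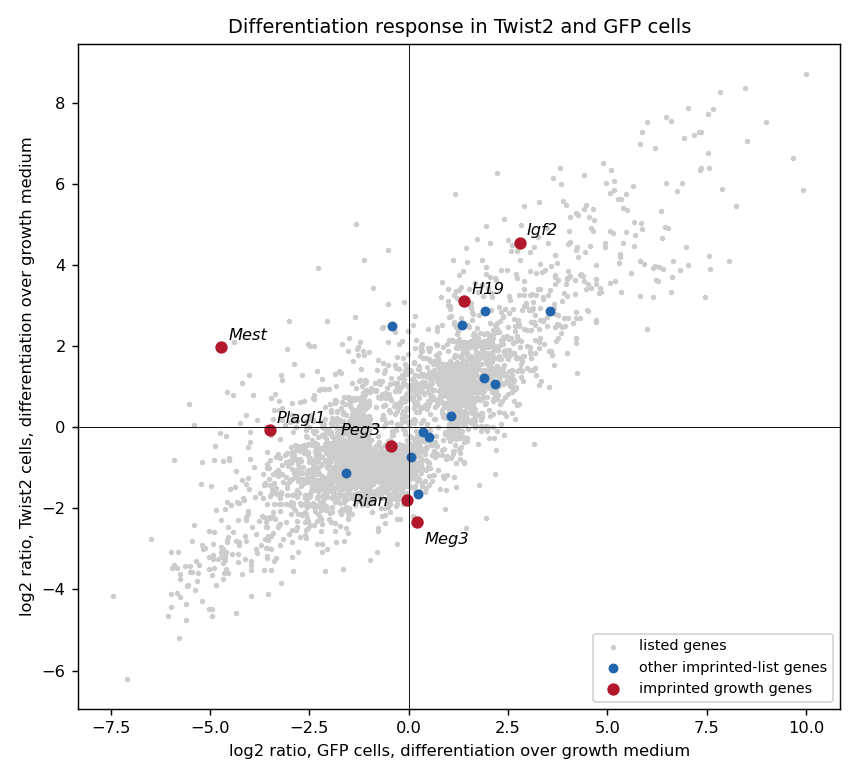
Log2 ratio of CPM + 1, differentiation over growth medium, in GFP cells (horizontal) and Twist2 cells (vertical) for the 3760 listed genes (grey), with the 7 imprinted growth genes in red and the other listed genes of the imprinted list in blue. Mest lies at -4.72 and 1.97, Plagl1 at -3.50 and -0.07, and H19 and Igf2 lie above 0 on both axes.

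Plagl1 (chromosome 10, 13060504 to 13131694, plus strand), the regulator of other imprinted genes, shared with Mest its high level in GFP GM and its low level in GFP DM. It stood at 280 CPM in Twist2 DM, 105 CPM in GFP DM, 293 CPM in Twist2 GM and 1192 CPM in GFP GM. The intervals of the Twist2 libraries overlapped each other, and the others were apart. Plagl1 was 11.4-fold lower in GFP DM than in GFP GM (log2 ratio -3.50, interval -3.60 to -3.41). By CPM, Twist2 DM and Twist2 GM did not differ beyond counting error (log2 ratio -0.07, interval -0.14 to 0.00). Scaled to unlisted genes that ratio was 0.19. In growth medium Plagl1 was 4.07-fold lower in Twist2 cells (log2 ratio -2.02). In differentiation medium it was 2.67-fold higher in Twist2 cells (log2 ratio 1.41), but within 2-fold when scaled to unlisted genes (0.82).

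In GFP cells Plagl1 and Mest thus stood opposite to H19 and Igf2, Plagl1 and Mest being lower and H19 and Igf2 higher after differentiation. The promoter windows of Mest and Plagl1 are shown because both genes were lower in Twist2 GM than in GFP GM and higher in Twist2 DM than in GFP DM, and because Twist2 belongs to a family of factors that bind E-boxes. Each runs from 250 bases before to 50 bases after a transcription start, 5′ to 3′ on the plus strand, from RefSeq (GRCm38.p6), with each match to the E-box letters CANNTG on either strand in capitals.
Mest, chr6:30737800-30738099: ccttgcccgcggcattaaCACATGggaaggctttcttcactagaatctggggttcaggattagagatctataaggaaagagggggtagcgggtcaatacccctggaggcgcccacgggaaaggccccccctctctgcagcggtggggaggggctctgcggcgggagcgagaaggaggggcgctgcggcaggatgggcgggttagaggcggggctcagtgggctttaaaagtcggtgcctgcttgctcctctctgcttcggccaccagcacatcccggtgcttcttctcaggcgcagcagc
Plagl1, chr10:13090582-13090881: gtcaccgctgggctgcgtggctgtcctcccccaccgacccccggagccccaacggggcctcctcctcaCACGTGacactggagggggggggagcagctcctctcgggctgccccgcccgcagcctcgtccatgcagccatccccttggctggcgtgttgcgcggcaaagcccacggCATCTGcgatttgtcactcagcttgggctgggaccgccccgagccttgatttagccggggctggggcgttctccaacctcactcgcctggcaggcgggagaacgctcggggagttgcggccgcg
The Mest window holds 1 match and the Plagl1 window 2. Another Mest start lies 3 bases further on, so that its window overlaps this one, and another lies upstream. Across the 12 windows of the 6 members that have one in the RefSeq table, 8 hold CANNTG, against 72.3% of 32851 windows of the same length over all genes. The narrower letters CATATG, in 3.91% of all windows, are in none of the 12, and CAGCTG, in 16.3% of all windows, is in the upstream Mest window. These are matches of letters, and binding was not measured.

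Peg3 (chromosome 7, 6703892 to 6730431, minus strand) was lower in Twist2 than in GFP cells in both media. It stood at 766 CPM in Twist2 DM, 1781 CPM in GFP DM, 1051 CPM in Twist2 GM and 2412 CPM in GFP GM. It was 2.32-fold lower in Twist2 DM than in GFP DM (log2 ratio -1.22, interval -1.25 to -1.18) and 2.29-fold lower in Twist2 GM than in GFP GM (log2 ratio -1.20, interval -1.23 to -1.17). The response to differentiation medium was under 2-fold in Twist2 cells (-0.46) and in GFP cells (-0.44), where its sign turned when scaled to unlisted genes (0.36). With median-of-ratios size factors the log2 ratio of Twist2 over GFP cells was -1.28 in differentiation and -0.96 in growth medium, inside 2-fold in the last. Scaled to unlisted genes it was -1.81 in differentiation and -1.25 in growth medium, so the likeness of the media holds for CPM only.

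Meg3 (chromosome 12, 109541001 to 109571726, plus strand) and Rian (chromosome 12, 109603940 to 109661716, plus strand) were low in all libraries and lowest in Twist2 DM. Their place in the table rests on that low level in Twist2 DM, so it is in part set by the selection. Meg3 had 0.566 CPM in Twist2 DM (7 reads), 12.3 CPM in GFP DM, 6.96 CPM in Twist2 GM and 10.5 CPM in GFP GM. Rian had 0.890 CPM in Twist2 DM (11 reads), 10.9 CPM in GFP DM, 5.60 CPM in Twist2 GM and 11.4 CPM in GFP GM. The GFP DM and GFP GM intervals overlapped for each gene, and for Meg3 those of Twist2 GM and GFP GM overlapped as well. In differentiation medium Meg3 was 21.8-fold lower in Twist2 cells (log2 ratio -3.09 with the pseudocount, interval without it -5.79 to -3.36) and Rian was 12.3-fold lower (log2 ratio -2.66, interval -4.67 to -2.72). In growth medium the log2 ratio of Twist2 over GFP cells was -0.53 for Meg3 and -0.91 for Rian, both within 2-fold, although Rian passed 2-fold with a pseudocount of 0.1 CPM. Between Twist2 DM and Twist2 GM neither gene reached 10 CPM, so the ratios of -2.34 for Meg3 and -1.80 for Rian were not counted. The ratio of Rian to Meg3 reads lay between 0.805 and 1.57 in the 4 libraries, and all of its counting intervals included 1.

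Long transcripts as a class were lower in the Twist2 DM library. The annotated exons of Meg3 and Rian span 18089 and 18234 bp. Among listed genes in the longest of 5 length groups, from 8782 bp, the median log2 ratio of Twist2 DM over GFP DM was -0.70, against 0.41 in the shortest group, up to 2946 bp. For Twist2 GM over GFP GM the same medians were -0.34 and 0.06, so the longest group was the lower there too. The part of transcript length in the values of Meg3 and Rian was not tested. Of 46 listed genes annotated as other than protein coding, 41 had enough reads to be counted. Between Twist2 DM and GFP DM, 9 of these were higher and 14 lower by 2-fold or more, and the median log2 ratio of the 46 was 0.06. Over all listed genes counted in that comparison, 25.4% were higher and 25.2% lower.

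Of the 7 members, 5 (H19, Mest, Igf2, Plagl1 and Peg3) were at least 2-fold lower and 0 higher in Twist2 GM than in GFP GM, with a median log2 ratio of -2.02. Genes are counted here where the library with more of them has at least 10 CPM. Of the 3514 such genes in this comparison, 10.6% were lower, 5.21% higher and 15.8% either, with a median of -0.10 over the whole table. In differentiation medium 2 members were higher (Mest and Plagl1) and 3 lower (Peg3, Meg3 and Rian) in Twist2 than in GFP cells, where 25.4% of the listed genes counted were higher, 25.2% lower and 50.6% either. Of the 3 lower, Meg3 and Rian are listed only through their low level in Twist2 DM, so their calls follow in part from the selection. Scaled to unlisted genes the members' counts in differentiation medium were 1 higher (Mest) and 5 lower, as Plagl1 came inside 2-fold and H19 and Igf2 passed it. In GFP DM against GFP GM, 2 of 7 were higher and 2 lower, against 32.6% and 40.9% of listed genes and 73.5% in either direction. In Twist2 DM against Twist2 GM, 3 of the 5 members with enough reads were higher and 0 lower, against 26.5% and 24.5% of listed genes and 51% in either direction. The table was selected on ratios against GFP GM, which raises the shares in comparisons with that library. Each library enters 2 of these 4 comparisons, so the counts are not independent of each other. In bulk RNA, fewer cells of a type and less RNA per cell cannot be told apart.

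A wider list of 71 imprinted genes had 19 members in the table, the 7 above and 12 others. In growth medium 10 of the 19 were lower and 1 higher in Twist2 than in GFP cells (median log2 ratio -1.13). Over all listed genes counted, 10.6% were lower and 5.21% higher there. In differentiation medium 9 were lower and 3 higher (median -0.89), against 25.2% and 25.4% over all listed genes counted. The longest of the 5 length groups held 8 of the 19 genes and 6 of these 9 lower ones (Meg3, Rian, Kcnq1ot1, Peg3, Ube3a and Ppp1r9a). Kcnq1ot1, like Meg3 and Rian, is listed only through its low level in Twist2 DM. The 8 genes of the longest group had a median of -1.81 in differentiation medium with 0 higher, and the other 11 had a median of -0.53 with 3 lower and 3 higher. In growth medium the medians of the 19 genes stood the other way, unlike those of all listed genes, which were lowest in the longest group. There the 8 genes had -0.77 with 3 lower and 0 higher, and the other 11 had -1.89 with 7 lower and 1 higher. The part of transcript length in these counts was not tested. Size factors reduced the growth medium count to 6 lower and 1 higher, since Peg3, Ube3a, Peg10 and Ppp1r9a came inside 2-fold. Scaling to unlisted genes gave 13 lower and 2 higher in differentiation medium. Among all listed genes past 2-fold, the share that was higher in Twist2 cells was 33.0% in growth medium, or 53.0% with size factors. In differentiation medium it was 50.2%, or 24.3% when scaled to unlisted genes.

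Besides the members, the genes at least 2-fold lower in Twist2 cells in both media were Zim1, Peg10, Gatm, Ube3a and Ppp1r9a. Zim1, a maternally expressed zinc finger gene beside Peg3, had 33.2 CPM in Twist2 DM, 215 CPM in GFP DM, 55.4 CPM in Twist2 GM and 207 CPM in GFP GM. Its log2 ratio was -2.66 in differentiation and -1.89 in growth medium, so it lay below its neighbour Peg3 in each. Peg10, a paternally expressed gene derived from a retrotransposon, had 552 CPM in Twist2 DM, 1952 CPM in GFP DM, 75.4 CPM in Twist2 GM and 167 CPM in GFP GM. Gatm, an enzyme of creatine synthesis, had log2 ratios of -1.09 in differentiation and -2.27 in growth medium. The ubiquitin ligase gene Ube3a had -1.66 and -1.17, and Ppp1r9a, which encodes an actin-binding neurabin, had -1.97 and -1.21, in the same order of media.

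Dcn went the other way from these, and Kcnq1ot1 was past 2-fold lower in differentiation medium only. Dcn, which encodes the matrix proteoglycan decorin and is imprinted in mouse placenta, was higher in Twist2 cells, with 64.6 CPM in Twist2 DM, 1.19 CPM in GFP DM, 10.6 CPM in Twist2 GM and 1.95 CPM in GFP GM. The growth medium ratio was not counted when scaled to unlisted genes, where both libraries were under 10 CPM. Decorin is also a gene of fibroblasts, whose listed marker Ly6a stood at 3.32 CPM in Twist2 DM, 0 reads in GFP DM, 32.9 CPM in Twist2 GM and 11.0 CPM in GFP GM. Its part in the Dcn values was not tested. Kcnq1ot1, a paternally expressed long noncoding RNA antisense to Kcnq1, had 2.43 CPM in Twist2 DM and 18.5 CPM in GFP DM (log2 ratio -2.51), and 9.76 CPM in Twist2 GM and 15.7 CPM in GFP GM (-0.63). The strand setting of the counting is not given in the sources used here, so reads of overlapping transcripts may be pooled for such genes.

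**Figure D3:**
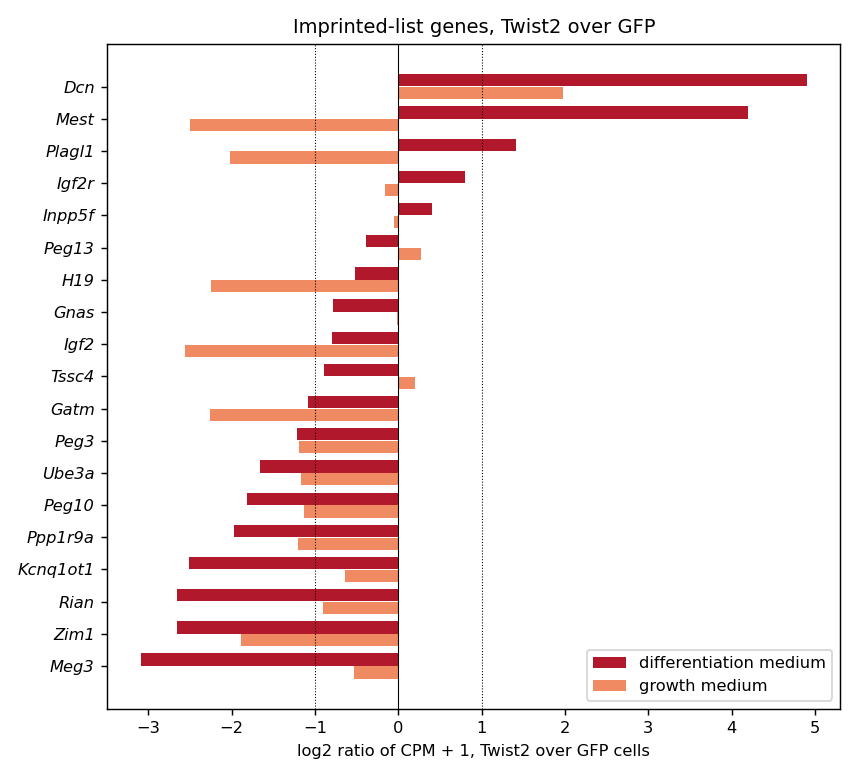
Log2 ratio of CPM + 1, Twist2 over GFP cells, for the 19 listed genes of the imprinted list in differentiation medium (dark) and growth medium (light), with dotted lines at 2-fold. Dcn (4.90) and Mest (4.19) are highest in differentiation medium, and Mest is at -2.50 in growth medium.

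The remaining genes of the list were within 2-fold between the viruses in both media, except that Gnas (-1.39) and Tssc4 (-1.48) passed 2-fold lower in differentiation medium when scaled to unlisted genes. Igf2r, the receptor that takes up Igf2 for degradation, had 457 CPM in Twist2 DM, 262 CPM in GFP DM, 61.5 CPM in Twist2 GM and 68.9 CPM in GFP GM. It was higher in differentiation than in growth medium in Twist2 cells (log2 ratio 2.87) and GFP cells (1.91). Igf2 reads per Igf2r read were 10.9 in Twist2 DM, 33.0 in GFP DM, 3.43 in Twist2 GM and 18.2 in GFP GM, without correction for length. Gnas, the gene of a stimulatory G protein subunit, Tssc4 and the noncoding RNA Peg13 were also higher in GFP DM than in GFP GM (1.05, 2.16 and 1.88). In Twist2 cells the same ratios were 0.28, 1.07 and 1.23. Gnas is listed only through its level in GFP DM, so its higher value there follows from the selection. Inpp5f, an inositol phosphatase gene, was lower in differentiation medium in Twist2 cells (-1.14) and GFP cells (-1.58), both inside 2-fold when scaled to unlisted genes (-0.89 and -0.82).

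By the parental copy usually expressed, 13 of the 19 listed genes were assigned, and Dcn, Ube3a, Ppp1r9a, Gatm, Gnas and Inpp5f were left out. Of these Dcn was higher in Twist2 cells. The 6 assigned maternally expressed listed genes (H19, Meg3, Rian, Zim1, Igf2r and Tssc4) had a median log2 ratio of -1.78 in differentiation medium, Twist2 over GFP, with 3 lower and 0 higher. That median falls in the gap between Rian (-2.66) and Tssc4 (-0.89). Of the 3 lower, Meg3 and Rian are of 1 cluster and of the longest length group. They are listed only through their low level in Twist2 DM, where they had 7 and 11 reads. The 7 paternally expressed genes (Igf2, Mest, Peg3, Plagl1, Peg10, Peg13 and Kcnq1ot1) had a median of -0.79, with 3 lower and 2 higher. Of these 3 lower, Kcnq1ot1 is listed only through Twist2 DM as well. Among all listed genes 25.2% were lower and 25.4% higher in that comparison. In growth medium the medians were -0.72 and -1.20, with 2 of 6 and 5 of 7 lower and 0 higher in each, against 10.6% lower and 5.21% higher over all listed genes. The same medians over all listed genes were -0.06 in differentiation and -0.10 in growth medium.

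The genes around H19 include fast-muscle genes. Of the listed genes, 7 lie within 500 kb of H19, a window with 33 annotated protein-coding genes. From lower to higher coordinates these are Dusp8, Ctsd, Tnni2, Lsp1, Tnnt3, Igf2 and Tssc4. Tnnt3, which encodes fast troponin T and lies 59.5 kb from H19, had 266 CPM in Twist2 DM, 945 CPM in GFP DM, 4.97 CPM in Twist2 GM and 59.6 CPM in GFP GM. Tnni2, which encodes fast troponin I and lies 131 kb away, had 63.0 CPM in Twist2 DM, 275 CPM in GFP DM, 0.181 CPM (2 reads) in Twist2 GM and 5.23 CPM in GFP GM. With Lsp1 and Igf2, they had the order of libraries seen for H19, which made 4 of 7 genes against 706 of all 3760 (18.8%). The muscle genes Myog and Des, on chromosome 1, had this order too, so it is not particular to the genes near H19. Between Twist2 GM and GFP GM, however, Lsp1 differed by a log2 ratio of only -0.02, and Ctsd, Dusp8 and Tssc4 had other orders. Lsp1 is listed only through its high level in GFP DM, and Ctsd only through its high level in Twist2 DM. The library in which each is highest thus follows from the selection, and Lsp1 is among the 4 genes counted.

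**Figure D4:**
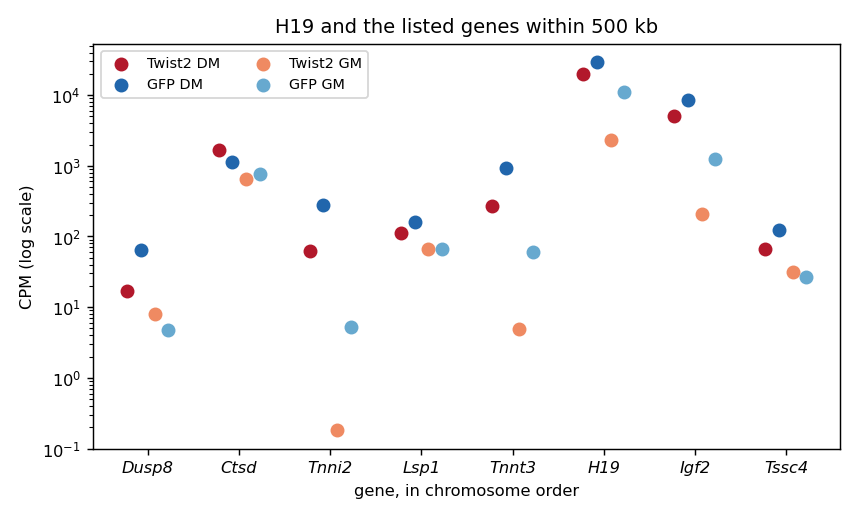
CPM on a log axis of H19 and the 7 listed genes within 500 kb of it, in chromosome order, 1 point per library. H19, Igf2, Tnnt3 and Tnni2 are highest in GFP DM and lowest in Twist2 GM, whereas Ctsd is highest in Twist2 DM (1694 CPM).

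Of 13 annotated protein-coding genes within 500 kb of Mest, Cep41 and Tmem209 were listed. Cep41, a centrosomal protein gene 29.8 kb away, had 18.8 CPM in Twist2 DM, 7.69 CPM in GFP DM, 19.7 CPM in Twist2 GM and 28.5 CPM in GFP GM. It was lower in GFP DM than in GFP GM (log2 ratio -1.77) and higher in Twist2 DM than in GFP DM (1.19), both less than for Mest, and the last was inside 2-fold when scaled to unlisted genes (0.65). Tmem209 differed by less than 2-fold except for GFP DM against GFP GM (-1.15, inside 2-fold with either other scaling). Cep41 and Tmem209 are each listed only through their low level in GFP DM, so that fall follows from the selection.

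Likeness of pattern was measured as the root mean square difference of log2(CPM + 1), centred on the gene's mean over the 4 libraries, among genes averaging at least 10 CPM. The genes most like H19 among 3602 were E2f2 (0.12), Mfsd2a (0.15), Stac3 (0.17), Gpr37 (0.21) and Fras1 (0.22), where Igf2 came at rank 221 (0.72). Those most like Mest were Cxcr4 (0.41), Spock3 (0.71), Lef1 (0.74), Timp3 (0.76) and Piezo2 (0.77), with Plagl1 at rank 29 (1.02). Cxcr4, a chemokine receptor gene, had 29.9 CPM in Twist2 DM, 2.60 CPM in GFP DM, 13.6 CPM in Twist2 GM and 65.5 CPM in GFP GM. Meg3 and Rian differed from each other by 0.21, while H19 and Mest differed by 2.46. With 4 libraries such likeness describes the table only.

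Genes of the insulin-like growth factor pathway were compared because Igf2 acts through it. Of 26 names 10 were listed. In growth medium 5 were lower and 0 higher in Twist2 than in GFP cells, namely Igf2, Igf1 (-2.79), Igfbp5 (-2.82), Igfbp3 (-2.68) and Igfbp2 (-1.12, or -0.88 with size factors), where 10.6% of all listed genes were lower and 5.21% higher. In differentiation medium 3 were higher, the binding protein genes Igfbp3 (3.67), Igfbp7 (2.49) and Igfbp5 (2.07), and 1 was lower, Igf1 (-1.19). Over all listed genes 25.4% were higher and 25.2% lower there, so 3 of 10 higher is near the share in the table. Igfbp7 is listed only through its high level in Twist2 DM, so its call follows in part from the selection. Scaled to unlisted genes 3 were higher and 3 lower. Igf1 had 22.0 CPM in Twist2 DM, 51.3 CPM in GFP DM, 1.26 CPM in Twist2 GM and 14.7 CPM in GFP GM, the order of libraries seen for Igf2. Igfbp5 had 16858 CPM in Twist2 DM, 4025 CPM in GFP DM, 813 CPM in Twist2 GM and 5739 CPM in GFP GM. Igfbp3 had 1553 CPM in Twist2 DM, 121 CPM in GFP DM, 47.3 CPM in Twist2 GM and 308 CPM in GFP GM. Both binding protein genes were thus highest in Twist2 DM and, like Mest, lower in Twist2 than in GFP cells in growth medium and higher in differentiation medium. The receptor gene Igf1r was within 2-fold between the viruses in both media.

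A list of 11 genes tied to H19 in earlier work had 3 members in the table. Hmga2, a chromatin protein gene and target of let-7, the microRNA that H19 can bind, had 126 CPM in Twist2 DM, 19.8 CPM in GFP DM, 1178 CPM in Twist2 GM and 677 CPM in GFP GM. It was higher in Twist2 DM than in GFP DM (log2 ratio 2.61) and within 2-fold in growth medium (0.80, or 1.04 with size factors). Rb1, the retinoblastoma gene and in human cells a target of miR-675, was lower in Twist2 cells in differentiation (-1.95) and growth medium (-1.33). For context, the proliferation marker Mki67 stood at 22.0 CPM in Twist2 DM, 0.433 CPM (4 reads) in GFP DM, 411 CPM in Twist2 GM and 248 CPM in GFP GM. Myogenin (Myog), a muscle differentiation factor, stood at 378 CPM in Twist2 DM, 1075 CPM in GFP DM, 3.52 CPM in Twist2 GM and 76.4 CPM in GFP GM. Cultures thus differed in proliferation and muscle genes as well as in imprinted genes, and the part of either in the imprinted gene values was not tested.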

How the data were processed

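Illumina libraries were made from total RNA of cultured mouse myoblasts, per the labels' protocols. TopHat2 2.0.0 and DESeq2 1.6.3 are named in the submitters' processing notes beside GRCm38 (mm10), without roles. No source used here gives the read counter, annotation or strand setting. A deposited table of 3760 genes holds the authors' CPM values, reads per 1000000 of the library, and 3 columns of log2 ratios against the GFP growth medium library. These log2 columns matched the log2 of CPM + 1 over the same sum in the GFP growth medium column within 1.27e-11, and all CPM values were whole multiples of 1 read within 0.001 reads, from which the reads and totals were taken. Few low values fix the size of 1 read in GFP growth medium and Twist2 differentiation medium, where 37 and 4 genes had 1 to 10 reads, so reads, totals and intervals are less secure there. All listed genes passed the 10 CPM and log2 ratio selection described with the results, as found from the values.

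Each group had 1 library, so no test was run and no count model fitted. Ratios are log2 of CPM with a pseudocount of 1 CPM, which understates changes of low genes. A gene was counted as higher or lower at 2-fold where its larger CPM value was 10 or more, and intervals are exact Clopper-Pearson at 95%, those of ratios being computed from reads without the pseudocount. Positions and exon lengths are from GENCODE M21 (GRCm38), where 3749 symbols matched and 11 did not, and sequences are from RefSeq. Members, gene lists and the rule for named genes (members, imprinted list, pathway genes past 2-fold, neighbours within 500 kb, the 5 most alike genes of H19 and of Mest, and 6 context genes, not all of them reported) were chosen with earlier results of these data known. Calculations were tested on simulated counts. Python 3.11.15, SciPy 1.17.1 and pandas 2.3.3 were used. Alternatives were pseudocounts of 0.1 and 5 CPM, no minimum CPM, median-of-ratios size factors and scaling to the summed reads of unlisted genes, that is, each library's total less its listed reads. Checks of named genes and list counts under both scalings, and of list counts by exon length, were added after the values were seen.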

Additional observations from a re-analysis of the deposited data

Results flagged for a closer look

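Mest moved in opposite directions with differentiation medium in the single libraries of each virus, at least 2-fold in each. The log2 ratio was 1.97 in Twist2 cells and -4.72 in GFP cells, a difference of 6.69. The difference was not tested, since each group had 1 library.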

How the results depend on the processing

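With scaling by median-of-ratios size factors, the log2 ratios of H19 were -2.01 (Twist2 over GFP in growth medium), -0.59 (Twist2 over GFP in differentiation medium), 3.16 (differentiation over growth medium in Twist2 cells), 1.74 (the same in GFP cells) and 1.42 (difference of responses), and those of Mest were -2.26 (Twist2 over GFP in growth medium), -4.37 (differentiation medium in GFP cells) and 6.39 (difference of responses). Scaled to unlisted genes, the same 5 ratios of H19 were -2.31, -1.12, 3.37, 2.19 and 1.19, and Mest had 3.61 (Twist2 over GFP in differentiation medium), 2.22 and -3.94 (differentiation medium in Twist2 and GFP cells) and 6.16 (difference of responses). A pseudocount of 5 CPM gave Mest 4.02 (Twist2 over GFP in differentiation medium) and -4.55 (differentiation medium in GFP cells). Apart from the pseudocount, the scalings shift the genes of a comparison alike, by 0.24, -0.06, 0.05 and 0.35 with size factors and by -0.06, -0.60, 0.26 and 0.80 with unlisted genes, for Twist2 over GFP in growth and in differentiation medium and for differentiation medium in Twist2 and in GFP cells.

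The count of imprinted-list genes past 2-fold in growth medium was 11 and became 7 with size factors; the other totals past 2-fold in either direction, for that list and for all listed genes, stayed within 1.5 times. Counts by direction moved more. Over all listed genes, scaling to unlisted genes gave 497 higher and 1548 lower for Twist2 over GFP in differentiation medium, against 873 and 867 with CPM, and 646 lower for differentiation medium in GFP cells, against 1511. That scaling gave 604 lower for differentiation medium in Twist2 cells, against 911. Size factors gave 968 lower in GFP cells, 241 lower against 372 for Twist2 over GFP in growth medium, and 6 lower against 10 on the imprinted list in growth medium. For differentiation over growth medium, scaling to unlisted genes moved the share of higher genes among all called to 66.8% in Twist2 cells, against 51.9% with CPM, and to 69.8% in GFP cells, against 44.4%; size factors gave 57.8% in GFP cells. On the imprinted list scaling to unlisted genes gave 9 higher and 0 lower in Twist2 cells, against 9 and 1, and 10 higher and 2 lower in GFP cells, against 8 and 3. No called ratio of a member changed direction under the 4 alternatives run for ratios; the ratios within 2-fold of Peg3 and Rian in GFP cells (0.36 and 0.68 when scaled to unlisted genes) and of Plagl1 in Twist2 cells (0.19) changed sign. Counts of reads limit Meg3 and Rian in Twist2 DM (7 and 11 reads). No paired analysis was possible because each group has 1 library.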
